A study of Rattus norvegicus with 2 samples.

Results

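The Iroquois homeobox genes Irx1, Irx2, Irx3, Irx5 and Irx6 were followed in single cells of the rat cochlear duct, at postnatal day 1 (P1) and postnatal day 7 (P7). They were taken by symbol, as 5 of the 32623 genes counted, and each had 1 row, with the Ensembl identifiers ENSRNOG00000033609 for Irx1, ENSRNOG00000012742 for Irx2, ENSRNOG00000011533 for Irx3, ENSRNOG00000011180 for Irx5 and ENSRNOG00000011037 for Irx6. The study isolated the cochlear duct of Sprague-Dawley pups, an outbred laboratory strain, at both ages to ask which subtypes of greater epithelial ridge cells exist and how they are lost after birth. No mutant allele or treatment is named for either age, and each library came from many pups pooled together. After the study's limits on cells, the P1 library held 12779 cells with 98005495 UMIs (unique molecular identifiers, 1 per captured transcript), and the P7 library held 12581 cells with 93080129 UMIs. With 1 library per age there was no replicate, so no test between ages was run and every interval below is an exact 95% interval that covers counting error only.

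Iroquois genes encode homeodomain transcription factors of the TALE class, which share an extended loop in the DNA-binding domain, and in mammals they lie in a pair of gene clusters. Irx1, Irx2 and Irx4 neighbour each other in one, and Irx3, Irx5 and Irx6 in the other. The family is best known for dividing tissues into territories during development, among them the neural tube, the heart and the limb bud, and members of a gene cluster are often expressed together. In the cochlea the sensory epithelium is surrounded by otic mesenchyme, which forms the fibrocytes of the lateral wall and the cells lining the fluid spaces.

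The upstream sequences of Irx1 and Irx2 are shown because these neighbours had similar patterns across cell types and opposite differences between the ages. They are the 250 bases before the RefSeq start site, 5' to 3' on the strand of the gene, in the GRCr8 assembly, for Irx1 at chr1:33122872-33123121 on the plus strand and for Irx2 at chr1:32494931-32495180 on the minus strand. The reads themselves were counted on rn6, so these positions are not those of the counted build. Capitals mark GC boxes, the letters GGGCGG on either strand, which bind Sp family factors.
Irx1: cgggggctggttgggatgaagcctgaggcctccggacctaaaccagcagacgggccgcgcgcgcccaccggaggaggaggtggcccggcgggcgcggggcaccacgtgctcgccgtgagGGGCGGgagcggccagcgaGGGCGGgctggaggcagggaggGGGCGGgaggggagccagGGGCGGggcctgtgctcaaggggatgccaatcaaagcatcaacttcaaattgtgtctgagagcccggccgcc
Irx2: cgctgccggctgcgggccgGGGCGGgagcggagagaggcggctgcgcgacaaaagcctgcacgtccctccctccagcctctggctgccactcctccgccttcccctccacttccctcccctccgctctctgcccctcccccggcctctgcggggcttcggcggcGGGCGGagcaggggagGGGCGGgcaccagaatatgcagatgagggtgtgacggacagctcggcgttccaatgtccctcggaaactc
The Irx1 window held 4 GC boxes and the Irx2 window held 3, all on the strand of the gene, against 30.5% of 33469 RefSeq windows of this length with at least 1. The GC content was 72.8% for Irx1 and 71.6% for Irx2, and the median over all windows was 51.2%. Both windows held 1 CCAAT, letters found in 34.0% of windows. Neither held TATAAA, which was in 12.9% of windows, or ACANNTGT, the palindrome described for Iroquois proteins, which was in 6.71%. These are matches of letters, and binding was not measured.

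The GEO labels call the cells greater epithelial ridge cells, an epithelial population beside the sensory hair cells. The paper bases this identity on clusters with falling cell numbers and similar expression, and on in situ hybridization. It reports signal of Otor, Col6a1, Scara3 and Ccn3 in the ridge region at P1. These genes are among the markers of the mesenchymal states used below. Counts hold no position in the tissue, so that evidence was not tested here. The marker counts went against the label for most cells. At least 3 of 8 epithelial markers were detected in 1.55% of cells at P1 and 0.970% at P7, whereas at least 3 of 12 mesenchymal markers were detected in 86.4% and 87.8%. The latter shares exceed those of cells in the mesenchymal clusters below, 66.6% and 57.7%, with 5.61% and 3.30% in dividing ones. Detection alone thus did not give the type of a cell. Cells were therefore grouped by clustering both libraries together, without the Iroquois genes or any listed marker among the clustering genes, into 23 clusters, which were named from their markers with the ending -like, apart from 2 that held markers of several types. Of the 23, 8 clusters were mesenchymal, with 8515 cells at P1 and 7263 at P7. Cluster 13 was epithelium-like, led by Oc90, Epcam and the tectorial membrane gene Tectb, with 269 and 212 cells. The libraries shared 60 cell barcodes.

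Irx1, Irx3 and Irx5 were each abundant in both libraries. Over all kept cells Irx1 stood at 152 CPM (its UMIs in every 1000000 UMIs of the cells) at P1 and 220 at P7, Irx3 at 138 and 98.7, and Irx5 at 122 and 81.8. Irx2 had fewer UMIs, with 14 CPM at P1 and 7.38 at P7. Irx6 was close to the limit of detection, with 2 UMIs in the whole P1 library and 18 in the whole P7 library. Irx4, the remaining family member, was not among the genes selected and had 7 UMIs at P1 and 1 at P7. As 3' UMIs count transcript ends and not fragments along a gene, gene length does not scale them, but capture can differ between genes, so a ratio between genes is read only against the same ratio in other cells, and not as a difference in level.

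Irx1 was higher and Irx2, Irx3 and Irx5 were lower in the P7 library. The log2 ratio of P7 to P1 over all kept cells was 0.54 for Irx1 (interval 0.51 to 0.57), -0.92 for Irx2 (-1.06 to -0.79), -0.48 for Irx3 (-0.52 to -0.44) and -0.57 for Irx5 (-0.62 to -0.53). None of these 4 genes differed by more than 2-fold. Of the 11780 genes that reached 200 UMIs in either library, 10.4% were over 2-fold higher at P7 and 10.0% were over 2-fold lower, and the median log2 ratio was 0.09. With totals that left out mitochondrial, ribosomal protein and haemoglobin genes, 1047 were higher and 1379 lower, and the median was 0.0034. Irx6 did not reach 200 UMIs and was not counted.

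Most Iroquois transcripts came from mesenchymal cells. The 8 mesenchymal clusters made up 66.6% of cells at P1 and 57.7% at P7, and held 78.9% and 84.0% of Irx1 UMIs, 81.8% and 79.6% of Irx3 UMIs, and 82.3% and 80.0% of Irx5 UMIs. The dividing mesenchymal clusters 10 and 14 added 11.1% and 7.11% of Irx1 UMIs. Glia-like cells were 11.7% of cells at P1 and 21.4% at P7 but held under 1% of the UMIs of Irx1 and of Irx3 at both ages.

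**Figure D1:**
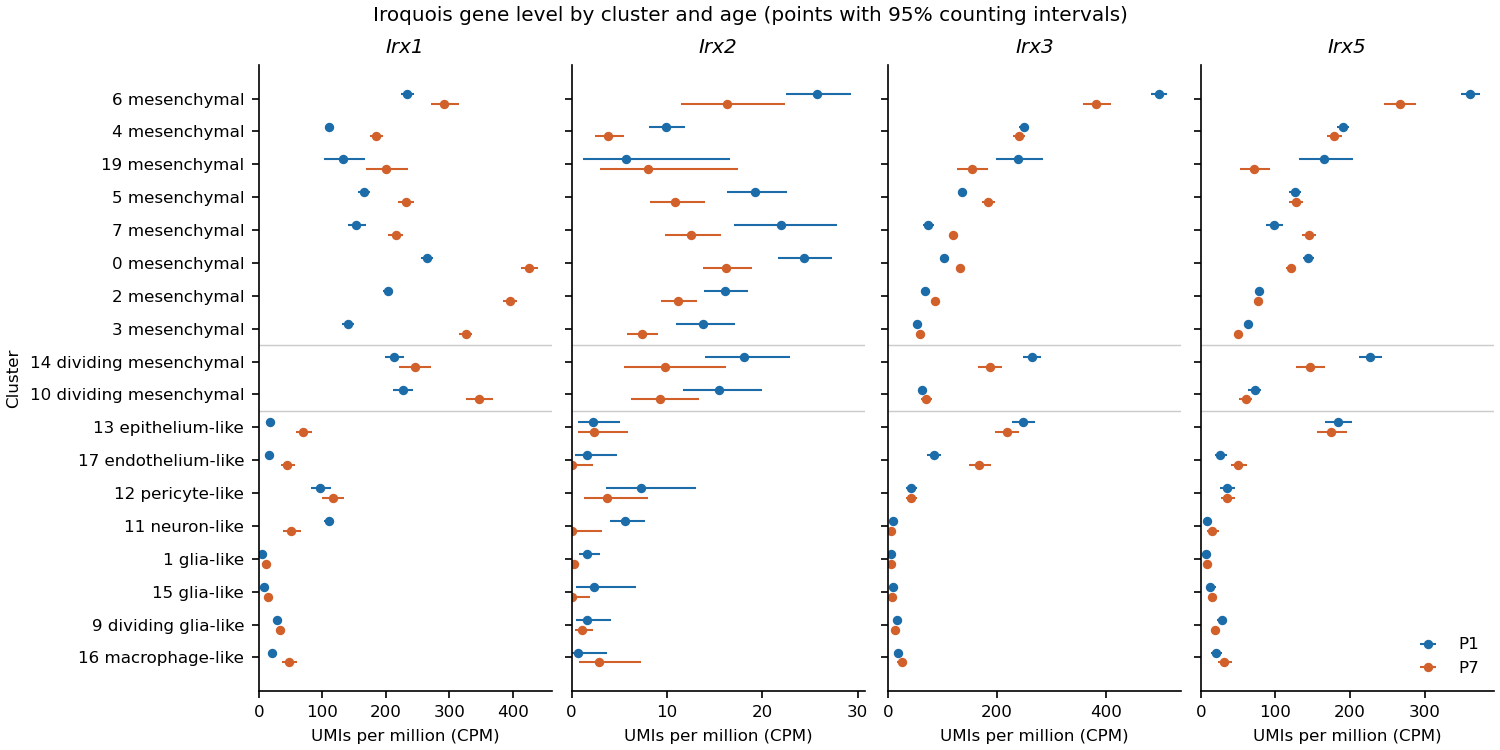
CPM of Irx1, Irx2, Irx3 and Irx5 on linear axes that differ between panels, in 18 clusters at P1 (blue) and P7 (orange), where each point is a cluster of 1 library and the bar its 95% counting interval. Irx3 and Irx5 peak in mesenchymal cluster 6 and are also high in epithelium-like cluster 13, whereas Irx1 is highest in cluster 0 and near the level of macrophage-like cells in cluster 13 at P1.

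Irx3 and Irx5 were highest in the same mesenchymal cluster. Cluster 6 (1055 cells at P1, 329 at P7) had Cav1, Sp5, Nkd2 and Notum among its leading genes, the last 2 of them Wnt feedback inhibitors, and was Ccn3-Scg3-like by its markers. Irx3 stood there at 497 CPM at P1 (interval 482 to 512) and 382 at P7 (357 to 408). Irx5 stood at 361 (349 to 374) and 266 (246 to 288). At each age these values lay above those of every other cluster, with intervals that did not overlap the next. Against the sum of the other 7 mesenchymal clusters, Irx3 in cluster 6 was higher by a log2 ratio of 1.98 at P1 and 1.63 at P7, and Irx5 by 1.53 and 1.34. These 7 include the small cluster 19, which was also Ccn3-Scg3-like by its markers, with a lower score. Without integration of the libraries the P7 ratio of Irx3 was 0.96, in a cluster with 56 cells at P7.

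Cluster 4, Aldh1a2-Scara3-like and led by the retinoic acid synthesis enzyme gene Aldh1a2, came next among the non-dividing mesenchymal clusters. Its Irx3 level was 250 CPM at P1 and 240 at P7, and its Irx5 level was 190 and 179. The log2 ratios of P7 to P1, -0.06 (-0.14 to 0.03) and -0.09 (-0.19 to 0.01), had intervals that spanned 0. This held for neither gene with totals that left out mitochondrial, ribosomal protein and haemoglobin genes. At P1, cluster 4, epithelium-like cluster 13 and the small cluster 19 could not be put in order for Irx3 or for Irx5, since the intervals of neighbours overlapped. The Otor-Crym-like clusters 5 and 7, with the fibrocyte gene Otos among the leading genes of both, lay lower, with Irx3 at 136 and 74.0 CPM at P1. The lowest mesenchymal level was in Gpc3-Vcan-like cluster 3, a fibroblast-like group led by Col15a1, Lepr and Dcn, with Irx3 at 53.5 and 58.1 CPM at the 2 ages. From the lowest to the highest mesenchymal cluster, Irx3 spanned 9.28-fold at P1 and 6.58-fold at P7, and Irx5 5.67-fold and 5.38-fold.

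Irx1 was spread more evenly. It spanned 2.41-fold over the mesenchymal clusters at P1 and 2.31-fold at P7. The highest level at both ages was in cluster 0, at 265 CPM (256 to 275) and 427 (413 to 440). Cluster 0 was led by Asb9, Edil3, Dlx5 and Crym, the last a marker of the Otor-Crym state. It was Sfrp4-Dlx5-Matn4-like by its best score, but only weakly. The mean log2 ratio of these state markers to all other cells was 1.01, against 1.78 for the state of cluster 5, the next lowest mesenchymal cluster. Cluster 6 followed at P1, with 234 CPM and an interval of 224 to 244 that overlapped that of dividing cluster 10, at 227, and at P7 it had 292, behind cluster 0, the Penk-Col8a1-B3gat2-like cluster 2 (led by Col8a1 and by Sfrp4, which also marks the state of cluster 0) at 395, dividing cluster 10 at 348 and cluster 3 at 326. The lowest mesenchymal values were in cluster 4, at 110 and 185 CPM, though its intervals overlapped those of the small cluster 19 at both ages. Cluster 4 thus combined high Irx3 and Irx5 with low Irx1 for a mesenchymal cluster, while cluster 2 had low Irx3 and Irx5 with Irx1 at 203 and 395 CPM. Cluster 3 had the lowest Irx3 and Irx5 at both ages, with Irx1 at 140 CPM at P1 and 326 at P7. The excess of Irx1 in cluster 6 over the other mesenchymal clusters at P1, a log2 ratio of 0.37, became -0.31 in the matching cluster when the libraries were clustered without integration.

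Irx2 had few UMIs and followed Irx1 across clusters more than Irx3. At P1 its level was 25.7 CPM in cluster 6 (22.5 to 29.3), 24.4 in cluster 0 and 22.0 in cluster 7, which could not be told apart. In cluster 4 it was 9.87 CPM. Of the 18 UMIs of Irx6 at P7, 10 were in mesenchymal cells, 7 of these in Otor-Crym-like cluster 7, and 4 were in epithelium-like cells. At P1 none of the 2 Irx6 UMIs was epithelium-like. The epithelium-like value at P7 was 2.30 CPM, with an interval of 0.627 to 5.90, and the count of 0 at P1 had an exact upper limit of 1.62 CPM, so the intervals overlapped.

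**Figure D2:**
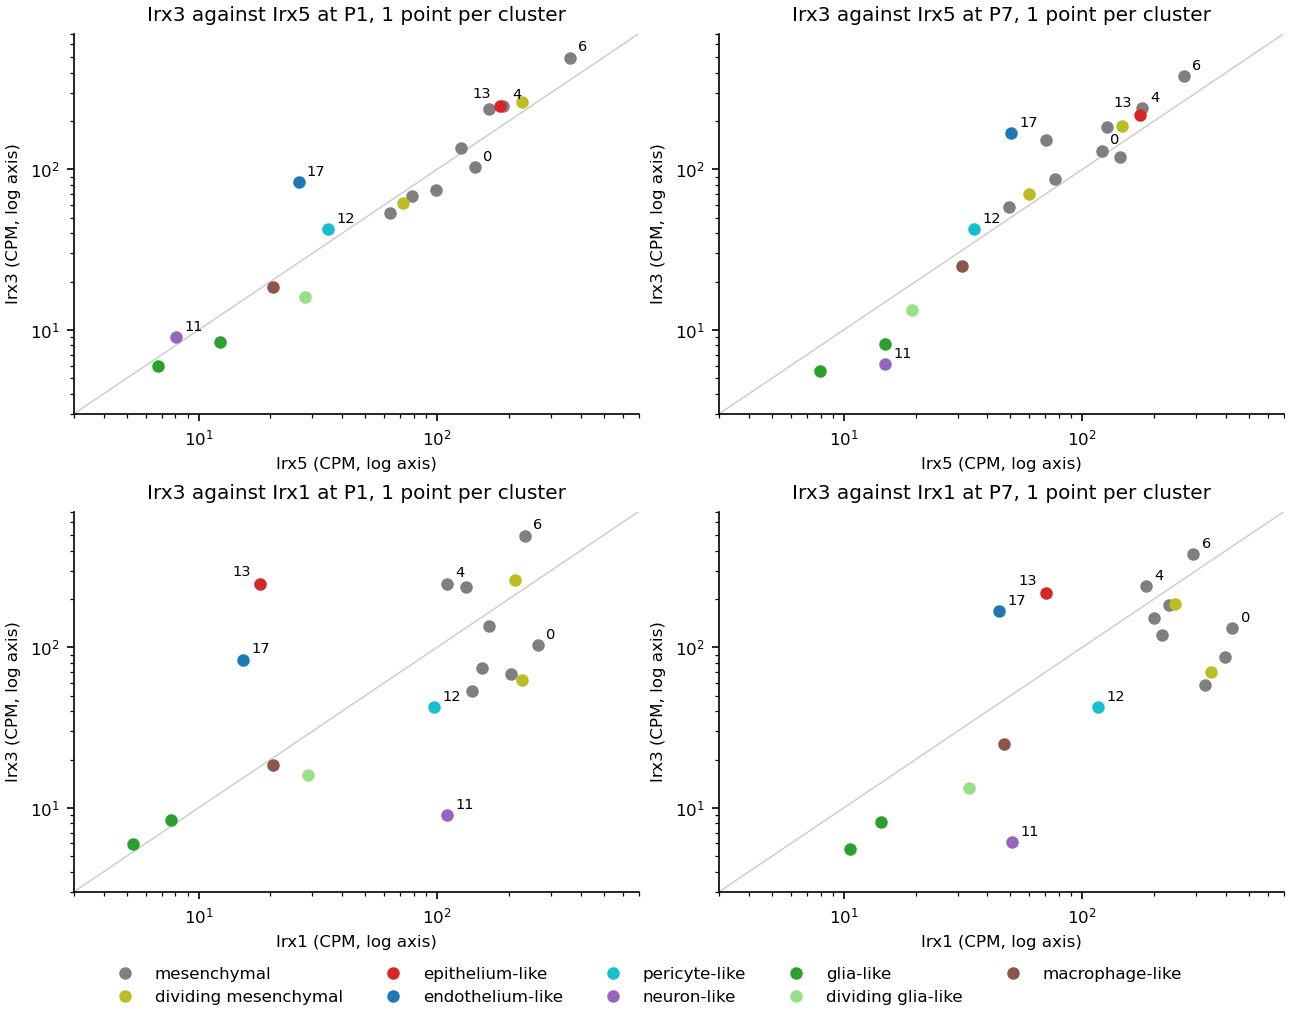
Levels in CPM on logarithmic axes, 1 point per cluster coloured by its class, with Irx3 against Irx5 above and Irx3 against Irx1 below, at P1 on the left and P7 on the right. Numbers mark the clusters named in the text and the grey line, a guide for the eye, marks equal CPM. Irx3 and Irx5 are high or low together in most clusters, with endothelium-like cluster 17 farthest above the line at both ages. For Irx1 the epithelium-like cluster 13 and neuron-like cluster 11 lie far to opposite sides. Cluster 11 held mostly glial markers at P7, so its points at P1 and P7 are of different cells.

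Between cell groups, the balance of Irx3 and Irx5 differed by more than counting error in several cases. The ratio of Irx3 to Irx5 UMIs was 1.12 in mesenchymal cells at P1 and 1.2 at P7, 1.35 and 1.24 in epithelium-like cells, and 1.21 at both ages in pericyte-like cells. Endothelium-like cluster 17, led by Plvap, Tie1 and Cldn5, differed, with a ratio of 3.19 at P1 (interval 2.29 to 4.51) and 3.33 at P7 (2.59 to 4.30). Its intervals did not overlap those of the mesenchymal class at either age, which were 1.09 to 1.15 and 1.16 to 1.24. The Irx5 level of cluster 17 had an interval that overlapped that of macrophage-like cells at both ages, so neither ratio is read as exact. Within the mesenchymal class at P1 the ratio ran from 0.71 (0.66 to 0.77) in cluster 0, with clusters 2, 3 and 7 also below the interval of the class, to 1.45 (1.09 to 1.93) in cluster 19 and 1.37 (1.31 to 1.44) in cluster 6. At P7 it ran from 0.83 (0.75 to 0.92) in cluster 7 to 2.17 (1.55 to 3.06) in cluster 19. In glia-like cells it was 0.79 and 0.67, but both genes lay below the macrophage-like level there, so no difference in balance is read from it.

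The ratio of Irx3 to Irx1 varied far more. It was 0.94 in mesenchymal cells at P1 and 0.43 at P7. In epithelium-like cells it was 13.7 at P1 (9.99 to 19.3) and 3.1 at P7 (2.52 to 3.83). Their Irx1 level had an interval that overlapped that of macrophage-like cells at both ages, so neither ratio is read as exact. In neuron-like cluster 11 at P1 it was 0.08 (0.06 to 0.11), on 783 UMIs of Irx1 and 64 of Irx3.

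Across clusters the pattern most like that of Irx3 was that of Irx5, among 10591 genes with at least 200 UMIs in each library. The measure was the lower of the P1 and P7 Pearson correlations of log2(CPM + 5), over the 19 clusters with at least 50 cells in both libraries, and it was 0.95 for this pair. The points share the 2 libraries, their depth and the clustering, so the value is a description. Neuron-like cluster 11 was among the points, although its cells at P7 held mostly glial markers, as described below. After Irx5 came Decr2 at 0.90, a peroxisomal reductase gene, Glce at 0.89, which acts in heparan sulphate synthesis, Calml4 at 0.87 and Boc, a hedgehog co-receptor gene, at 0.84. For Irx5, the genes after Irx3 were Calml4 at 0.88, Sfrp2, a secreted Wnt modulator, at 0.88, Tnfrsf19 at 0.87 and AABR07067499 at 0.85.

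The second pair was Irx1 and Irx2. Irx2 ranked second for Irx1, at 0.90, behind Cacna1g, a T-type calcium channel gene, also at 0.90, and ahead of Twist1, a mesenchymal transcription factor gene, at 0.90, Clmp at 0.89 and Tcte1 at 0.88. For Irx2, Irx1 ranked first, followed by the homeobox gene Nkx6-1 at 0.90, Bmp5 at 0.89, Mllt3 at 0.89 and Rhoq at 0.89. Between the pairs likeness was lower. Irx3 ranked 835th for Irx1, at 0.55, and Irx5 ranked 403rd, at 0.655. Among the members, those of the same gene cluster thus lay nearest to each other in these 19 clusters and by this measure.

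Between the ages, Irx1 was higher at P7 in each of the 8 mesenchymal clusters. Within the mesenchymal class it stood at 189 CPM at P1 (186 to 193) and 317 at P7 (312 to 322), a log2 ratio of 0.74 (0.71 to 0.78). The ratio ranged from 0.32 in cluster 6 to 1.21 (1.10 to 1.32) in cluster 3, where the level went from 140 to 326 CPM, and all 8 intervals lay above 0. In the background of 10350 genes tested within the mesenchymal clusters, 11.7% were over 2-fold higher at P7 and 7.17% over 2-fold lower. Irx1, Irx2, Irx3 and Irx5 were in neither group over the class as a whole.

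Irx2 went the other way, with 18.3 CPM at P1 and 10.6 at P7 in the mesenchymal class and a log2 ratio of -0.79 (-0.94 to -0.64). Its interval lay below 0 in 7 of the 8 clusters. The exception was cluster 19, with 3 UMIs at P1 and 6 at P7. Irx1 and Irx2, alike across cell types, therefore differed in sign between the ages within 7 mesenchymal clusters.

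**Figure D3:**
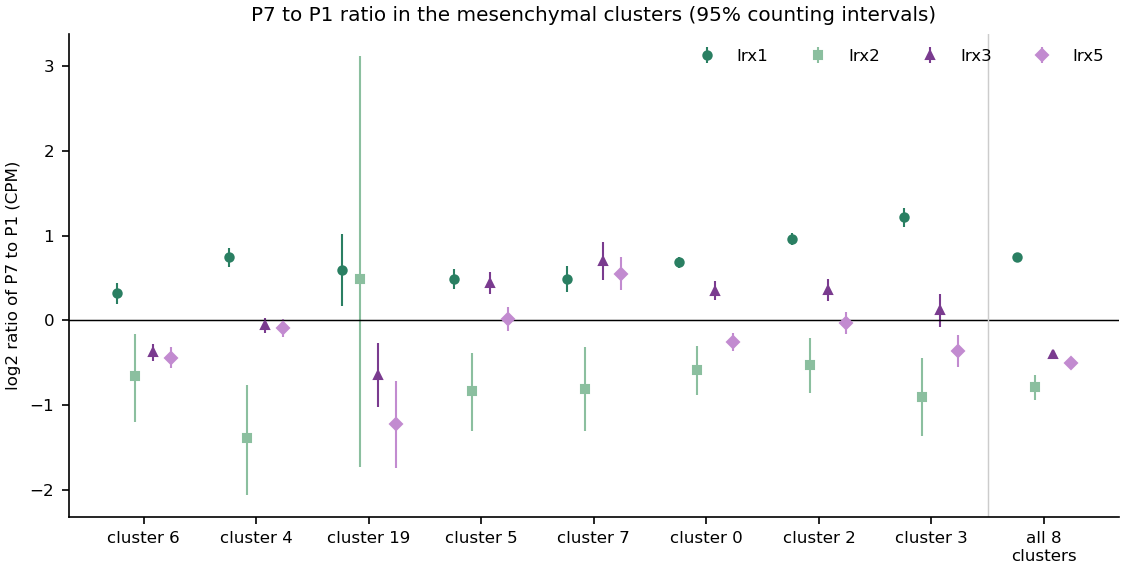
Log2 ratio of P7 to P1 of the CPM of Irx1 (circles), Irx2 (squares), Irx3 (triangles) and Irx5 (diamonds) in the 8 mesenchymal clusters and in all of them together, with 95% counting intervals and a line at 0. Irx1 lies above 0 in each cluster and Irx2 below 0 in 7. The interval of Irx3 lies above 0 in clusters 5, 7, 0 and 2 and below it in the 8 clusters together.

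For Irx3 and Irx5 the direction differed between clusters. In the mesenchymal class Irx3 stood at 178 CPM at P1 and 135 at P7, a log2 ratio of -0.40 (-0.44 to -0.36), and Irx5 at 159 and 112, a ratio of -0.50 (-0.54 to -0.45). Within single clusters, however, Irx3 was higher at P7 in 4 (clusters 0, 2, 5 and 7), lower in 2 (clusters 6 and 19), and had an interval that spanned 0 in 2. The highest ratio was 0.70 (0.48 to 0.92) in cluster 7, where Irx3 went from 74.0 to 120 CPM. Irx5 was higher in 1 cluster, again cluster 7, with 98.6 and 144 CPM, lower in 4 and not distinguishable in 3. With totals that left out mitochondrial, ribosomal protein and haemoglobin genes, Irx3 was higher in 4 clusters and lower in 3, and Irx5 higher in 1 and lower in 5.

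The sizes of the mesenchymal clusters differed between the libraries. Of the clusters with high Irx3, cluster 6 held 1055 cells at P1 and 329 at P7 and cluster 4 held 1396 and 832, while cluster 3, with the lowest Irx3, held 802 and 1538. When the 8 clusters were given their P1 shares of UMIs at both ages, the P7 level of Irx3 was 177 CPM against 178 at P1, a log2 ratio of -0.01. With P7 shares at both ages the ratio was 0.14. For Irx5 these ratios were -0.20 and -0.11, for Irx1 they were 0.71 and 0.81, and for Irx2 they were -0.72 for both. This weighting was chosen after the data had been seen. The shares of clusters rest on 1 library per age, and dissection and capture were not tested as sources of the difference in cluster size.

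The dividing mesenchymal clusters also differed from each other in Irx3 and Irx5. Cluster 14, which shared the Ccn3-Scg3 markers, had Irx3 at 264 CPM at P1 and 186 at P7 and Irx5 at 227 and 146, below the levels of cluster 6. Cluster 10, with Gpc3-Vcan markers, had Irx3 at 62.2 and 70.3 and Irx5 at 72.0 and 60.0. For Irx1 they were close at P1, at 213 CPM in cluster 14 and 227 in cluster 10, whose intervals overlapped, but at P7 cluster 10 was higher, at 348 (327 to 369) against 245 (221 to 272).

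Single cells held few UMIs of each gene. Mesenchymal cells had on average 1.38 UMIs of Irx1 at P1 and 2.37 at P7, and 1.30 and 1.01 of Irx3. In cluster 6 at P1, 61.2% of cells held 3 or more UMIs of Irx3 and the highest cell held 29. In cluster 2 at P7, 51.9% held 3 or more of Irx1, against 20.7% at P1.

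To compare shares of cells across depths, each cell was thinned to 2000 UMIs. In the mesenchymal class 30.5% of thinned cells had a UMI of Irx1 at P1 (29.5% to 31.5%) and 45.2% at P7 (44.0% to 46.4%). The unthinned shares were 64.9% and 79.0%, at median depths of 6548 and 7203 UMIs. For Irx3 the thinned shares were 24.1% and 21.8%, while the unthinned shares went the other way, at 50.5% and 51.9%. For Irx5 the thinned shares were 24.2% and 18.8%. Macrophage-like cells, which are not known to express these genes, served as a background that holds free RNA and doublets, with 14.8% called doublets at P1 and 12.9% at P7. Glia-like cells lay lower still, at 1.23% and 2.29% of thinned cells for Irx1, so this background is not the same in all cell types. In macrophage-like cells 3.95% of thinned cells had a UMI of Irx1 at P1 (1.60% to 7.98%) and 7.36% at P7 (3.86% to 12.5%), at median depths of 7219 and 6968.5 UMIs. For Irx3 these shares were 3.95% and 5.52%. The mesenchymal shares lay well above this level for Irx1, Irx3 and Irx5. Irx2 was found in 3.5% and 2.16% of thinned mesenchymal cells and in 0.565% and 0.613% of macrophage-like cells.

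Mesenchymal cells with Irx1 alone were more frequent at P7 at equal depth. Thinned cells with Irx1 and neither Irx3 nor Irx5 were 17.4% at P1 and 30.3% at P7, whereas those with Irx3 or Irx5 and no Irx1 were 26.6% and 20.3%. Cells with Irx1 and at least 1 of the other 2 were 13.1% and 14.9%. In cluster 6, 29.4% of cells had both Irx3 and Irx5 at P1 and 21.3% at P7, and 14.9% and 14.3% had none of the 3 genes. In cluster 3, 62.7% and 42.9% had none.

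**Figure D4:**
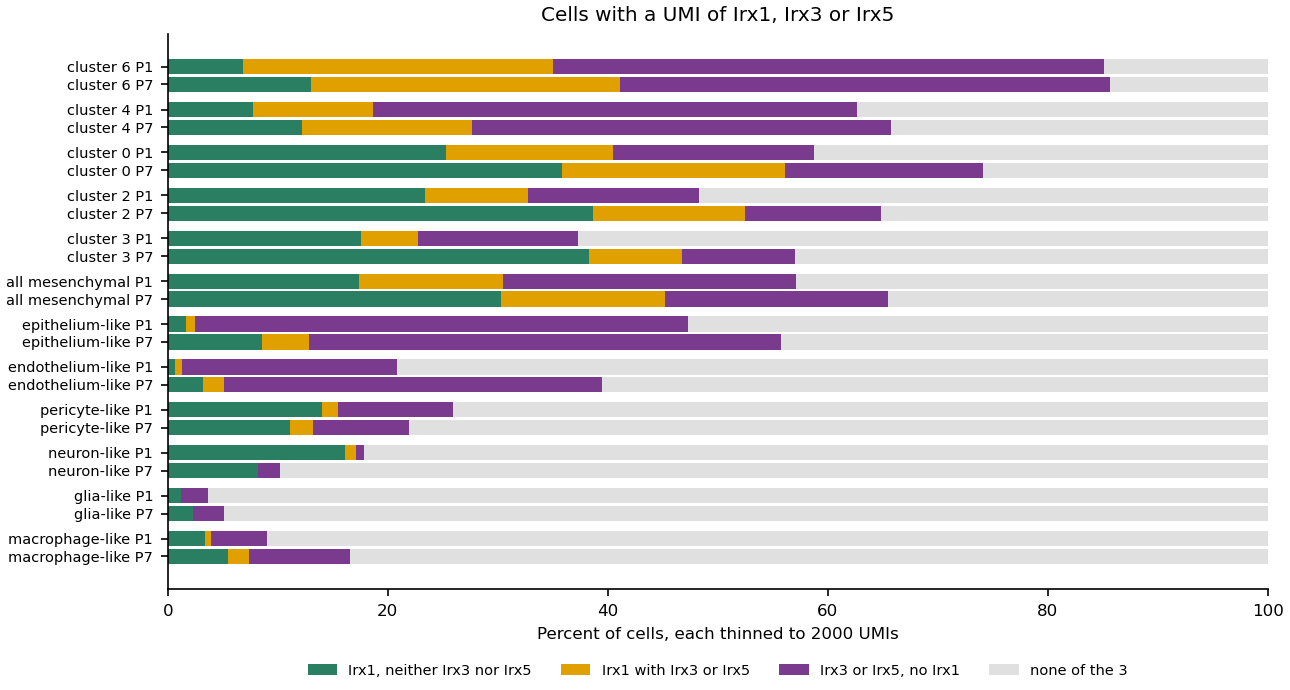
Stacked percentages of cells, each thinned to 2000 UMIs, with a UMI of Irx1 and neither Irx3 nor Irx5 (green), of Irx1 together with Irx3 or Irx5 (yellow), of Irx3 or Irx5 without Irx1 (purple), or of none of them (grey), by cluster or class and age. The share of all mesenchymal cells in which Irx1 alone was detected is 17.4% at P1 and 30.3% at P7. Cells with Irx3 or Irx5 and no Irx1 detected make up most positive cells of the epithelium-like and endothelium-like clusters. A gene not detected at this depth can still be present.

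Irx3 and Irx5 were found in the same mesenchymal cells slightly more often than their frequencies within a cluster and depth class give. At P1, 2904 cells held both against 2642 expected, a ratio of 1.10 (1.06 to 1.14), and at P7 2216 held both against 2054, a ratio of 1.08 (1.03 to 1.13). Among pairs of other listed transcription factors of like detection, the ratio ranged from 0.921 to 1.09 over 66 pairs at P1 and from 0.951 to 1.08 over 78 pairs at P7, with medians of 1.01 and 1.02. None of these pairs lay above Irx3 with Irx5 at either age, though its excess was small and the highest of the other pairs came close. Irx1 with Irx2 gave 1.08 (1.00 to 1.16) at P1 and 1.06 (0.969 to 1.16) at P7. Irx1 with Irx3 gave 1.04 and 1.02, below 8 of the 66 pairs and 39 of the 78. Irx2 with Irx5 gave 1.07 and 1.08, on fewer cells and with intervals that spanned 1.

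**Figure D5:**
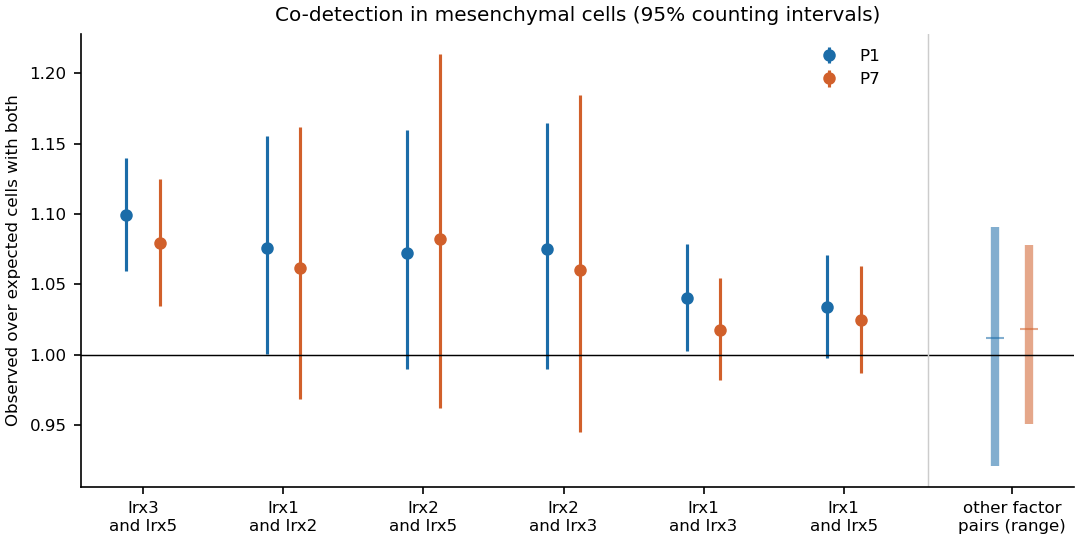
Observed over expected number of mesenchymal cells with both genes of a pair at P1 (blue) and P7 (orange), with 95% counting intervals and a line at 1, expected within cluster and depth quintile. The bars on the right span the ratios of pairs of other transcription factors, with a tick at their median. Irx3 with Irx5 lies at 1.10 and 1.08, at the top of that span.

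In epithelium-like cells Irx3 and Irx5 were present and Irx1 was nearly absent at P1. Irx3 stood at 247 CPM at P1 (227 to 269) and 218 at P7 (196 to 241), and Irx5 at 184 (166 to 202) and 175 (156 to 196), and neither differed between the ages beyond counting error. With totals that left out mitochondrial, ribosomal protein and haemoglobin genes, however, the log2 ratio of Irx3 was -0.30 (-0.50 to -0.11), below 0. Of thinned cells, 31.1% had a UMI of Irx3 at P1 and 34.3% at P7, while the unthinned shares went the other way, at 63.6% and 50.5%. Thinning left out 28 of 269 cells at P1 and 72 of 212 at P7, so no order of the ages is read from these shares. Irx1 stood at 18.0 CPM at P1 (12.9 to 24.4), close to the 20.4 of macrophage-like cells. At P7 it stood at 70.2 (58.3 to 83.9), against 47.0 (36.4 to 59.8) in macrophage-like cells, intervals that overlapped slightly, and 12.9% of thinned epithelium-like cells had a UMI (7.80% to 19.6%) against 7.36%. For Irx1 the log2 ratio was 1.96 (1.44 to 2.51). The summed level of mesenchymal markers in this cluster also went up, from 1162 to 2220 CPM, which was 9.74% of the mesenchymal level at P1 and 13.8% at P7, while Irx1 went from 9.53% to 22.2% of its mesenchymal level. The part of free RNA in this difference was not tested. In the background of 1758 genes tested in this cluster, 7.85% were over 2-fold higher at P7 and 5.75% over 2-fold lower, and Irx3 and Irx5 were in neither group. Irx1 had fewer than 200 UMIs there at both ages and was not counted.

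Few epithelium-like cells held Irx1 together with Irx3. At P1, 13 cells had both against 18.5 expected, and at P7 20 had both against 28, with ratios of 0.703 (0.375 to 1.2) and 0.714 (0.436 to 1.10), so that a lower frequency was not distinguishable from 1 at this number of cells. Irx3 with Irx5 gave 1.13 (0.945 to 1.34) and 1.19 (0.934 to 1.49).

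Endothelium-like cells (167 at P1, 189 at P7) held Irx3 with little Irx1. Irx3 stood at 83.7 CPM at P1 (71.0 to 98.1) and 167 at P7 (148 to 188), a log2 ratio of 1.00 (0.71 to 1.29), and 16.1% and 29.9% of thinned cells had a UMI. Irx5 stood at 26.3 CPM (19.4 to 34.8) and 50.3 (40.1 to 62.4), against 20.4 (13.9 to 29.0) and 31.3 (22.8 to 42.1) in macrophage-like cells, with overlap at both ages. Irx1 stood at 15.3 and 44.9 CPM, against 20.4 and 47.0 in macrophage-like cells, again with intervals that overlapped at both ages. Called doublets were 13.8% of this cluster at P1 and 16.4% at P7. Without them the log2 ratio of Irx3 was 1.2 (0.88 to 1.53), and those of Irx1 and Irx5, on few UMIs, were 2.86 and 1.81 in place of 1.55 and 0.94. The mesenchymal markers in this cluster summed to 959 CPM at P1 and 1713 at P7. Haemoglobin genes made up 1.31% of its UMIs at P1 and 0.288% at P7. The part of either in the differences between the ages was not tested.

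Pericyte-like cluster 12, led by Rgs5 and Kcnj8, held Irx1 at 97.1 CPM at P1 (82.0 to 114) and 116 at P7 (100 to 134), with Irx3 at 42.3 and 42.4 and Irx5 at 35 in both. None of the 3 differed between the ages beyond counting error. The mesenchymal markers summed to 25.6% of their mesenchymal level at P1 and 25.1% at P7, and Irx1 to 51.4% and 36.7%. Irx3 stood at 23.7% and 31.5% of its mesenchymal level and Irx5 at 22.1% and 31.2%, near the share of the markers. The interval of Irx5 overlapped that of macrophage-like cells at both ages, and that of Irx3 only at P7. Called doublets were 11.9% and 13.6% of this cluster. The part of doublets or free RNA in these levels was not tested.

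Neuron-like cluster 11 (433 cells at P1, 160 at P7) held Irx1 without Irx3 or Irx5. At P1 Irx1 stood at 111 CPM (103 to 119), Irx3 at 9.04 and Irx5 at 8.05, and 17.1% of thinned cells had a UMI of Irx1 (13.6% to 21.1%) against 3.95% of macrophage-like cells. The mesenchymal markers there summed to 6.48% of their mesenchymal level, and Irx1 to 58.5%. The P7 cells of this cluster were of another kind. The neuron markers summed to 8520 CPM at P1 and 1186 at P7, and the glial markers to 1521 and 12978, so the P7 level of Irx1, 50.9 CPM, belongs to a different mixture and is not read as a difference between the ages of 1 cell type. Glia-like cells held little of any member, with Irx1 at 5.84 CPM at P1 and 10.5 at P7, below the macrophage-like level.

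Other TALE homeobox genes, the wider class to which the family belongs and whose Meis and Pbx products are cofactors of Hox proteins, included members with larger differences. The 13 found included Irx4, which is of the Iroquois family but was not among the members. Of the 13, 8 had at least 200 UMIs within the mesenchymal clusters, of which 3 were over 2-fold higher at P7 and 0 lower, against 11.7% and 7.17% of all genes tested. The median log2 ratio was 0.15 against 0.14 over all genes tested. In the mesenchymal class Tgif1, a repressor of TGF-beta signalling, stood at 32.7 CPM at P1 and 132 at P7, a log2 ratio of 2.01 (1.94 to 2.08). Meis3 stood at 8.97 and 18.9, a log2 ratio of 1.07, and Pknox2 at 6.66 and 13.4, a ratio of 1.01. Totals that left out mitochondrial, ribosomal protein and haemoglobin genes lower all mesenchymal ratios alike, that of Irx1 from 0.74 to 0.65. With them Meis3 and Pknox2 would not be over 2-fold higher. Pbx2, at 34.2 and 32.4, and Pbx3, at 23.1 and 21.7, had log2 ratios with intervals that spanned 0.

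Of the genes beside the Iroquois clusters, 11 were found, of which 7 were tested in the mesenchymal clusters and 0 were over 2-fold higher or lower, against 11.7% and 7.17% of all genes tested, so that a count of 0 is near the background. Mmp2, a matrix protease gene beside the cluster of Irx3, Irx5 and Irx6, was the most abundant, at 517 and 784 CPM, a log2 ratio of 0.60 (0.58 to 0.62). Lpcat2 stood at 59.2 and 95.9, a ratio of 0.70 (0.63 to 0.76). Fto, an RNA demethylase gene of the same region, stood at 33.7 and 33.0. Rpgrip1l, a gene of the ciliary transition zone, stood at 20.9 and 11.3, a log2 ratio of -0.88 (-1.02 to -0.74). Neighbours thus differed in direction, and the median of the 7 was 0.18.

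Of genes described elsewhere as partners or targets of Iroquois proteins, 5 were found and 4 were tested in the mesenchymal clusters, and 0 were over 2-fold higher or lower there, against the same 11.7% and 7.17%. Over all kept cells, Gja1 was over 2-fold higher, with a log2 ratio of 1.06, and Gata3 over 2-fold lower, with -1.39, against 10.4% and 10.0% of all genes tested. Totals that left out mitochondrial, ribosomal protein and haemoglobin genes lower all these ratios alike, that of Irx1 from 0.54 to 0.46. With them Gja1 would not be over 2-fold higher. Cxcl12, a chemokine gene, stood at 57.0 and 47.8 CPM, and Gja1, which encodes connexin 43, at 13 and 25.4. Gata3 was highest in the epithelium-like cluster, at 520 CPM at P1 and 519 at P7, against 5.69 and 4.16 in the mesenchymal class. Trps1 was highest in cluster 6, as Irx3 and Irx5 were, at 21.6 and 19.7 CPM.

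Among 50 mesenchymal and otic transcription factors found, 27 were tested in the mesenchymal clusters, of which 9 were over 2-fold higher at P7 and 1 was over 2-fold lower, with a median log2 ratio of 0.17, against 11.7% and 7.17% of all genes tested. Pou3f4, a marker of otic mesenchyme, stood at 580 and 446 CPM, and Tbx18 at 424 and 441. Nr2f1 was highest in cluster 6, at 577 CPM at P1 and 603 at P7. Twist1, with a pattern like that of Irx1, was highest in cluster 2, at 250 and 414 CPM. Sox9, a chondrogenic factor, stood at 91.4 and 259 CPM in the mesenchymal class, a log2 ratio of 1.5 (1.46 to 1.55), which was above that of Irx1.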

How the data were processed

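Cells from the cochlear duct were profiled in droplets, in 1 library per age. The authors aligned reads to rn6 and counted UMIs with Cell Ranger 3.1.0, and the deposited values are raw UMI counts per gene and barcode, with 114285848 UMIs in 14068 barcodes at P1 and 101264868 in 14501 at P7. No removal of doublets or free RNA is stated. The limits kept cells with over 500 and under 5000 genes, a minimum of 500 UMIs, and mitochondrial genes below 25% of UMIs. As applied here, these limits left slightly fewer cells at P1 and more at P7 than the study counted.

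Libraries were integrated by canonical correlation analysis and clustered in Seurat 5.3.0 under R 4.3.3 (10 dimensions, resolution 0.8), on 1855 of 2000 variable genes. Scrublet (scanpy 1.11.5) marked 598 doublets at P1 and 770 at P7, which were removed only in an alternative. A cluster was named for a cell type whose markers had a mean log2 ratio of at least 1 to all other cells, with at least 3 of them found in at least 10% of its cells, and was otherwise called mesenchymal where at least 6 mesenchymal markers were so found. Clusters 8 and 20, with markers of several types, were left unnamed as mixed. Levels are CPM with exact Poisson intervals, ratios have exact binomial intervals and shares Clopper-Pearson intervals, all at the 95% level. Thinning to 2000 UMIs left out 252 cells at P1 and 711 at P7. The steps were tested on simulated data. The remaining steps used scipy 1.17.1, numpy 2.4.6 and pandas 2.3.3 under Python 3.11.15.

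The members, lists and markers were chosen with earlier results of these data known, and the markers of mesenchymal states came from an earlier analysis of the same libraries, so a match to them is not independent evidence. The genes named were the members, the listed genes as counts with up to 8 of a list named from the most abundant down, and the 5 genes most like each member. Some listed genes are not reported here by name. Alternatives covered integration, resolution, dimensions, doublets, limits on cells, totals, thinning and the strata of co-detection.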

Additional observations from a re-analysis of the deposited data

Results flagged for a closer look

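In 3 results the cell groups differed in opposite directions between the ages, and in each the difference was not tested. For Irx1 the log2 ratio of P7 to P1 was 1.96 in the epithelium-like cluster and -1.12 in neuron-like cluster 11, a difference of 3.08, but cluster 11 held mostly neuron markers at P1 and mostly glial markers at P7, so its ratio sets different cells side by side and is not a difference between the ages of 1 cell type. For Irx3 it was 1.00 in the endothelium-like cluster and -0.64 in mesenchymal cluster 19, a difference of 1.64. For Irx5 it was 0.94 in the endothelium-like cluster and -1.22 in cluster 19, a difference of 2.16. Cluster 19, led by Car2, Actg2 and Meox1, held 76 cells at P1 and 89 at P7.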

How the results depend on the processing

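Of 168 recomputed values over 36 results, 120 counted as the same, 46 as moved without a change of sign and 2 as reversed. For values with an interval, the same meant within the margin of counting error. The counts of genes over 2-fold had no such margin. With totals that left out mitochondrial, ribosomal protein and haemoglobin genes they counted as the same, although 1229 higher and 1183 lower became 1047 and 1379. The causes were not tested unless given. For ratios between the ages, the weighting by fixed cluster shares, the other resolutions, 30 dimensions and the stricter mitochondrial limit within the clusters were chosen after seeing the data.

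Over all kept cells, a mitochondrial share under 10% gave log2 ratios of P7 to P1 of 0.63 for Irx1, -0.44 for Irx3 and -0.52 for Irx5. Totals without mitochondrial, ribosomal protein and haemoglobin genes gave 0.46, -0.56 and -0.66, and within the mesenchymal clusters 0.65, -0.50 and -0.60. A mean over cells of their own CPM gave 0.49 for Irx1 and -0.66 for Irx5 over all cells, -0.33 for Irx3 in mesenchymal clusters and -0.41 for Irx5 in the epithelium-like cluster. Every deposited barcode gave -0.53 for Irx3. Without doublets, the endothelium-like ratios were 2.86 for Irx1 and 1.81 for Irx5. With P7 shares of clusters the mesenchymal ratio of Irx1 was 0.81, that of Irx3 reversed to 0.14 and that of Irx5 was -0.11; with P1 shares Irx3 gave -0.00502 and Irx5 -0.20, with the sizes of all 8 clusters fixed at once.

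For the leading Ccn3-Scg3-like cluster, cluster 6 as reported, against the other mesenchymal clusters, the reported Irx1 ratio at P1 was 0.37. Without integration it reversed to -0.31, and the P7 ratio was -1.35 where -0.12 was reported; the cluster then held 2342 cells at P1 and 56 at P7. Irx3 gave 0.96 at P7, and Irx5 1.31 at P1 and 1.12 at P7. A resolution of 1.2 gave 0.25 for Irx1 at P1, and 30 dimensions gave 0.24, with 2.09 at P1 and 1.52 at P7 for Irx3. A resolution of 0.4 left no such cluster and gave no value.

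Shares of mesenchymal cells with a UMI are larger at greater depth by construction. Without thinning they were 64.9% at P1 and 79.0% at P7 for Irx1, 50.5% and 51.9% for Irx3, and 52.8% and 47.2% for Irx5. At 4000 UMIs they were 49.3% and 65.7%, 38.8% and 37.2%, and 39.4% and 32.1%. For Irx3 the unthinned order of the ages was thus the opposite of the thinned one. The log2 excess of cells with both Irx3 and Irx5 in mesenchymal cells was 0.29 at P1 and 0.23 at P7 with depth strata only, and with cluster strata only 0.18 at P7, and 0.63 at P7 in epithelium-like cells. With at least 1000 UMIs, 776 genes were over 2-fold higher and 537 lower, since fewer were tested. No paired analysis was possible because each age had 1 library and no test was run.

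Depth limits Irx2 and Irx6 most, since Irx6 had 2 and 18 UMIs. The small clusters, such as cluster 19, gave wide intervals. Counting intervals do not cover differences between animals, dissections or libraries.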

Other observations

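Outside this paragraph, mixed clusters 8 and 20 entered comparisons between the ages only as part of all kept cells. Both stood among the ordered clusters, and cluster 8 was 1 of the 19 points behind the likeness values. Cluster 8 (341 cells at P1, 586 at P7) was led by Pmel, Ptgds and Mlana together with the glial gene Fabp7, and called doublets were 51.9% and 59.0% of it. Irx1 stood there at 89.7 and 167 CPM and Irx3 at 44.7 and 59.2. Cluster 20, in which 96.1% and 78.3% of cells were called doublets, held Irx3 at 215 and 197 CPM, close to cluster 4, whose leading genes Aldh1a2 and Calb2 it shared. The hair-cell-like cluster 22 had 22 cells at P1 and 0 at P7, with 1 UMI of Irx1, 8 of Irx3 and 6 of Irx5. Glia-like cluster 18 had 20 cells at P1 and 150 cells at P7, with Irx1 at 4.72 CPM and Irx3 at 6.07 at P7.

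Meis1, a TALE gene outside the Iroquois family, stood at 3.95 CPM in the epithelium-like cluster at P1 and 24.8 at P7, and was highest there of the clusters at P7. It was chosen after its values were seen. Gja1, one of the listed targets, was highest in the endothelium-like cluster at both ages, at 35 and 131 CPM, where Irx3 stood at 83.7 and 167. A link between these genes was not tested.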
